A study of Mus musculus with 16 samples.

Results

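The genes examined were 10 of the 47069 in the table, all of secreted factors that macrophages use in repair and growth: thrombospondin-1 (Thbs1), the EGF receptor ligands Areg, Hbegf and Ereg, the PDGF chains Pdgfa and Pdgfb, the vascular factor Vegfa, the TGF-β ligand Tgfb1, the activin A subunit Inhba and the insulin-like factor Igf1. They were picked by name as repair factors, with their difference between the groups already known, so the values of these 10 genes in that comparison are a description and carry no test. The cells were bone marrow-derived macrophages (BMMs) from wild type C57BL/6 mice aged 8 to 10 weeks, grown in medium with 20% L929-conditioned medium and harvested on day 7. All libraries came from BMMs primed overnight with IFNγ at 10 ng/mL and then activated for 1 hr with LPS at 100 ng/mL together with immune complexes of ovalbumin and rabbit IgG (LPS/ICs). The control group received the vehicle DMSO at 0.01%, and the other group received the γ-secretase inhibitor (GSI) DAPT at 25 μM, which blocks the cleavage that releases the active part of Notch receptors, and also the cleavage of other membrane proteins. The study's methods give an overnight incubation with DMSO or GSI ahead of activation. Differences that arose before LPS/ICs cannot be told apart from those that arose after. Each group had 2 replicates, and each replicate was read in 4 runs that were summed here, which gave 4 libraries. There were no unstimulated macrophages among these samples, so the response of a gene to LPS/ICs itself was not measured. The labels do not say whether the replicates were separate cultures or animals, so the tests measure only the spread between these libraries.

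Macrophages that clear debris and immune complexes also release factors that act on their neighbours. Thrombospondin-1 is a matrix protein that binds CD36 and CD47 and can free TGF-β from its latent complex. Amphiregulin, HB-EGF and epiregulin are made as membrane proteins, shed by ADAM proteases, and bind the EGF receptor family on epithelial and stromal cells. PDGF dimers act on fibroblasts and pericytes, VEGF-A on endothelium, and TGF-β1, activin A and IGF-1 on matrix production, differentiation and growth.

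The 4 libraries held 42694655 to 56932059 counts, and the 10 most abundant genes took 7.24% to 8.41% of them. In such a library 3 counts correspond to 0.0529 to 0.0697 CPM (counts scaled to library size), the level below which no value is read here. All 10 listed macrophage markers were detected. They summed to 13205 and 13455 CPM in the DMSO libraries and to 10322 and 11295 CPM in the GSI libraries, and 7 of the 10 were called lower and 1 higher in the comparison described below. The part of this shift in the results was not tested. Platelets store thrombospondin-1, PDGF and TGF-β1, and of 9 platelet and megakaryocyte markers Gp1bb and Gp9 were at 0 in all libraries and Ppbp at no more than 2 counts. That list summed to 52.2 and 56.2 CPM in the DMSO libraries and to 76.7 and 83.2 CPM in the GSI libraries, most of it Vwf (30.7 and 50.4 CPM on average) and Pf4 (20.8 and 27.3 CPM). In edgeR's quasi-likelihood test both were called higher, Vwf by 0.71 (FDR 1.67e-07) and Pf4 by 0.39 (FDR 0.00289) on the log2 scale. Treml1 had 67 to 142 counts and Itga2b 20 to 35. The 10 fibroblast and stroma markers summed to 1.30 to 1.80 CPM in every library, with Col3a1 and Lum at 0. Neutrophil and granulocyte markers summed to 61.4 and 63.8 CPM with DMSO, then 110 and 116 CPM with GSI, mainly Csf3r, which was called higher (0.86, FDR 7.51e-09 in edgeR's quasi-likelihood test), while Elane and Prtn3 were at 0. Dendritic cell markers summed to 186 and 179 CPM with DMSO, then 113 and 115 CPM with GSI, mainly Clec9a, which was called lower (-0.69, FDR 1.20e-07), while Cd209a and Siglech were at 0. The part of these shifts in the results was not tested either. In bulk RNA, fewer cells of a type and less RNA per cell cannot be told apart.

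Short promoter windows of 300 bases, from 250 bases before to 50 after a start site, were taken from the RefSeq table (GRCm38.p6) for 6 of the 10 genes, with 8 windows in all. Thbs1, Pdgfb, Hbegf and Ereg had no window. The 3 printed here are shown because they belong to a factor that was much lower with GSI (Areg), the most abundant factor (Vegfa) and an abundant factor at nearly the same level in both groups (Tgfb1). Capitals mark matches, on either strand, to any of 7 short motifs: the RBPJ core TGGGAA (RBPJ is the DNA-binding partner of Notch), AP-1 TGANTCA, the cyclic AMP response element CRE TGACGTC, EGR GCGTGGG, the HIF core ACGTG, the GC box GGGCGG and the TATA box TATAAA.
Areg, chr5:91139349-91139648, plus strand: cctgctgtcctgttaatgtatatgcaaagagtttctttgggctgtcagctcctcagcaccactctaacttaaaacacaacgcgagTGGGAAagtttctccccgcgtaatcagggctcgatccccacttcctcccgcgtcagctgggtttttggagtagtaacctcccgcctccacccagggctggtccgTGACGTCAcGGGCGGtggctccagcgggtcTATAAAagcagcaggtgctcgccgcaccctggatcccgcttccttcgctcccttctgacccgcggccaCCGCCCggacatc
Vegfa, chr17:46032328-46032627, minus strand: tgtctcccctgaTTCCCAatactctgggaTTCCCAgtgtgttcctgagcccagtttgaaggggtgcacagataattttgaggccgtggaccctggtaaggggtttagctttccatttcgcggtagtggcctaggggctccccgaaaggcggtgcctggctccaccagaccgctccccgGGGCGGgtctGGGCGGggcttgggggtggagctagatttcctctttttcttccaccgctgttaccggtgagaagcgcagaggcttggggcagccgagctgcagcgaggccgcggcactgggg
Tgfb1, chr7:25686752-25687051, plus strand: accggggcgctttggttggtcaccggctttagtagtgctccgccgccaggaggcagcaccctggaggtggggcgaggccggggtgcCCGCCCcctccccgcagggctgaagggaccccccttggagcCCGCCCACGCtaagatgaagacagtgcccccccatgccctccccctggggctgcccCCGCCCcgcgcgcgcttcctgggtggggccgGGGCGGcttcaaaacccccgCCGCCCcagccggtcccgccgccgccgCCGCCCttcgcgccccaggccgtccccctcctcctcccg

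The Areg window held 1 RBPJ core, 165 bases before the start site, a CRE that reads on both strands (2 overlapping matches), 2 GC boxes and a TATA box that began 31 bases before the start. Among 32851 promoters of the same length, 3.21% held the CRE letters, 13.6% the TATA box, 25.6% the RBPJ core and 35.7% the GC box. The Vegfa window shown held 2 RBPJ cores and 2 GC boxes, and a window at a start site inside the gene held 2 RBPJ cores, 1 GC box and 1 HIF core, letters found in 19.6% of all promoters. The bases after the start site in these 2 Vegfa windows were not found whole in a GENCODE transcript of the gene. The Tgfb1 window held 6 GC boxes and 1 EGR match that overlapped one of them, and no RBPJ core. The RBPJ core was in 5 of the 8 windows: that of Areg, both of Vegfa, that of Igf1 and 1 of the 2 of Pdgfa. The windows with the letters thus belonged both to genes that were lower with GSI and to genes that were not, and a match is a description of letters, not a binding site.

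The genes differed over a wide range of abundance. On the scale of TPM, which divides counts by exon length and scales every library to the same sum and so lets genes be compared, Vegfa was highest with DMSO, at 230 and 211 TPM in the 2 libraries. Pdgfb (125 and 120 TPM) and Tgfb1 (116 and 121 TPM) followed and overlapped. Thbs1 stood at 64.1 and 58.2 TPM, then Igf1 at 17.2 and 17.1, Areg at 14.1 and 11.9 and Hbegf at 9.24 and 10.4 TPM. Pdgfa (1.55 and 2.58 TPM) and Inhba (1.45 and 1.69 TPM) overlapped near the bottom, and Ereg was lowest at 0.249 and 0.212 TPM. Dividing by the longest transcript in place of all exons put Tgfb1 above Pdgfb and Hbegf above Areg, so these orders depend on the gene model used. With GSI the order differed at 3 places. Tgfb1 stood above Pdgfb with no overlap (108 and 101 against 62.4 and 63.5 TPM), Thbs1 stood below Igf1 (11.1 and 13.7 against 17.1 and 15.2 TPM), and Areg stood below Hbegf by a narrow gap (4.70 and 4.19 against 4.83 and 6.82 TPM).

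**Figure D1:**
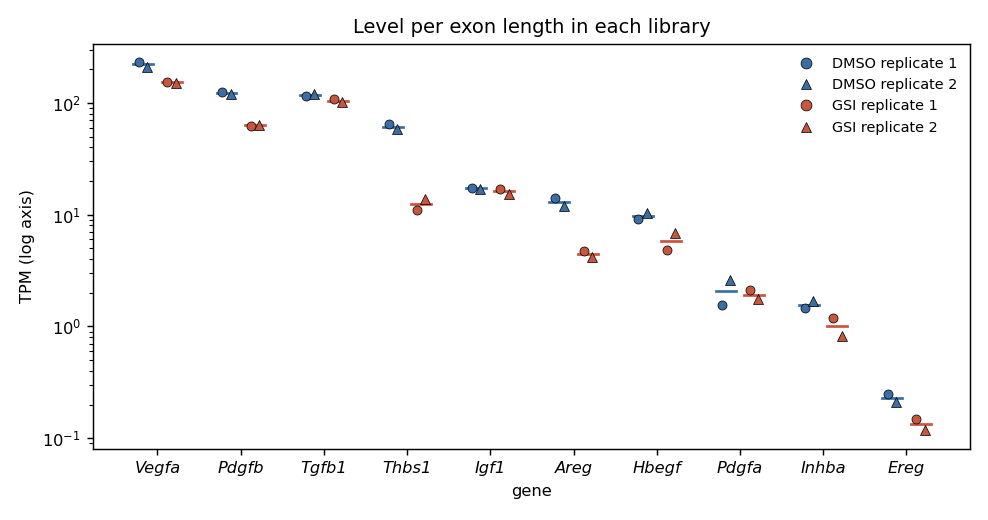
TPM on a log axis for each of the 10 genes in the 2 DMSO libraries (blue) and 2 GSI libraries (red), with circles for replicate 1, triangles for replicate 2 and short lines for group means. Vegfa tops the plot in both groups and Ereg lies lowest, and the gap between the colours is widest for Thbs1 and Areg.

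The first question was how the level of each factor differed between LPS/IC-activated macrophages with and without GSI. In edgeR's quasi-likelihood test over 13211 genes, 40.8% of genes were called at a false discovery rate (FDR) under 0.05, 21.9% lower and 19.0% higher with GSI. All 10 factors entered that fit, and 6 of them (Thbs1, Areg, Pdgfb, Hbegf, Vegfa and Inhba) were among the genes called lower and 0 among those called higher, which is given as a description because the genes were chosen with this contrast known. Their median log2 fold change was -0.63, beside 0.01 for all genes tested. The CPM of the 2 groups did not overlap for 8 of the 10, all lower with GSI, and for 70.6% of all genes. One factor, Thbs1, was also past a log2 fold change of -1.5, a limit that 2.17% of all genes passed.

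Thbs1 (ENSMUSG00000040152, chr2:118111876-118127133, plus strand) gave 5302 and 6467 counts with DMSO and 1095 and 1371 with GSI. In CPM these were 123 and 114 against 22.7 and 27.8, so both GSI libraries were far below both controls. The group means were 119 ± 6.54 and 25.2 ± 3.61 CPM (SD, n = 2). This is 4.70-fold more with DMSO, or -2.23 as a log2 fold change with a standard error (SE) of 0.0891. Only 2 of the 7581 genes with at least 10 CPM on average had a lower log2 fold change. The 4 runs of one library gave like counts, 1288 to 1351 in DMSO replicate 1 and 262 to 301 in GSI replicate 1. An opposite-strand gene, Gm29233, shares 208 exon bases with Thbs1 and had 6 and 5 counts with DMSO and 0 in both GSI libraries.

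Of the 7581 genes with at least 10 CPM on average, the 5 whose centred log2 CPM over the 4 libraries lay closest to Thbs1 were Abca1, Fosb, Rnf150, D8Ertd82e and Nr4a3. Abca1, the cholesterol exporter, was nearest, at a Euclidean distance of 0.06 on the log2 scale, with 93.1 and 86.4 CPM against 16.8 and 20.0 CPM. Fosb, an AP-1 subunit, lay at 0.17, with 134 and 145 against 27.1 and 33.0 CPM. Rnf150 followed at 0.25, D8Ertd82e at 0.30 and the nuclear receptor gene Nr4a3 at 0.41. With 4 libraries in 2 groups, such a distance mostly reflects the size of the difference between groups.

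Among the EGF receptor ligands, Areg and Hbegf were well covered by counts and Ereg was not. Areg (chr5:91139599-91148432, plus strand), whose product amphiregulin is a repair factor of innate and regulatory lymphoid cells as well, gave 233 and 264 counts with DMSO and 93 and 84 with GSI. In CPM this was 5.42 and 4.65 against 1.92 and 1.70, a log2 fold change of -1.47 (SE 0.156), or 2.76-fold higher with DMSO. The groups were well apart, and leaving out any 1 library kept the difference between -1.58 and -1.36.

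Hbegf, on chromosome 18, encodes heparin-binding EGF-like growth factor and gave 608 and 921 counts with DMSO and 380 and 544 with GSI. Its CPM values were 14.1 and 16.2 against 7.86 and 11.0, with no overlap, but the 2 GSI libraries differed from each other 1.40-fold. The log2 fold change was -0.69 (SE 0.124), and it lay between -0.95 and -0.47 when 1 library was left out. Ereg (chr5:91074622-91093646, plus strand), the gene of epiregulin and a neighbour of Areg on chromosome 5, had only 14 and 16 counts with DMSO and 10 and 8 with GSI. At this depth its log2 fold change of -0.70 had an SE of 0.457, and a difference was not detectable.

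The other ligands of the family were at or near the limit of detection. Tgfa was at 0 in all 4 libraries, Btc and Epgn had no more than 2 counts in any, and Egf stood between 0.0697 and 0.304 CPM. The family summed to 23.7 and 22.6 TPM in the DMSO libraries and to 9.75 and 11.3 TPM in the GSI libraries. Areg made up 59.5% and 52.6% of it with DMSO and 48.2% and 37.2% with GSI, while Hbegf made up 39.0% and 46.1%, then 49.6% and 60.6%. With longest-transcript lengths Hbegf led already with DMSO, at 55.2% against 43.5% for Areg, so the leading ligand with DMSO depends on the gene model used.

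Both PDGF chains among the 10 genes were detected, at very different levels. Pdgfb (chr15:79995874-80014977, minus strand), the PDGF-B chain, gave 7071 and 9165 counts with DMSO and 4226 and 4358 with GSI. Its CPM values were tight within a group, 164 and 162 against 87.4 and 88.2, and far apart between groups. The log2 fold change was -0.89 (SE 0.0690), or 1.85-fold higher with DMSO, and leaving out any 1 library gave -0.91 to -0.88, the narrowest range of the 10 genes.

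Pdgfa (chr5:138976014-138997370, minus strand), the PDGF-A chain, gave 66 and 147 counts with DMSO and 107 and 90 with GSI. Its CPM values overlapped, 1.53 and 2.59 against 2.21 and 1.82, and its DMSO libraries differed 1.69-fold. The log2 fold change of -0.06 (SE 0.214) moved from -0.36 to 0.39 when 1 library was left out, so its direction was not settled. The opposite-strand gene 6330403L08Rik, which shares 813 exon bases with Pdgfa, had 23 to 35 counts. Of the PDGF chains, Pdgfb held 89.3% and 88.5% of the summed TPM with DMSO and 85.3% and 83.7% with GSI, and Pdgfc held 9.55% on average with DMSO and 12.9% ± 1.55 (SD, n = 2) with GSI.

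Vegfa (chr17:46016993-46032369, minus strand), the main endothelial growth factor, gave 13438 and 16537 counts with DMSO and 10752 and 10617 with GSI. In CPM this was 312 and 291 against 222 and 215, so the groups did not overlap. The log2 fold change was -0.46 (SE 0.0707), or 1.38-fold higher with DMSO. Although its fold was modest, its group means were 68.5 TPM apart, which was 33.4% of the difference of 205 TPM summed over the 10 genes. Pdgfb contributed 29.1% and Thbs1 23.8% of that difference.

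Tgfb1 (chr7:25687002-25705077, plus strand), which encodes the main TGF-β isoform of macrophages, gave 7941 and 11133 counts with DMSO and 8864 and 8396 with GSI. In CPM it stood at 185 and 196 against 183 and 170, with a narrow gap between the groups. The log2 fold change was -0.11 (SE 0.0715), inside the middle 50% of all genes, which ran from -0.25 to 0.24. Tgfb1 made up 92.4% and 93.2% of the summed TPM of the TGF-β isoforms with DMSO and 97.2% and 96.5% with GSI.

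Inhba (chr13:16011851-16031621, plus strand), the βA subunit of activin A, gave 126 and 197 counts with DMSO and 125 and 87 with GSI. Its CPM values were 2.93 and 3.47 against 2.59 and 1.76, apart by a small gap, and the 2 GSI libraries differed 1.47-fold. The log2 fold change of -0.57 (SE 0.183) ran from -0.87 to -0.31 with 1 library left out, and Inhba was no longer among the called genes without DMSO replicate 2, without GSI replicate 2, or in DESeq2. Igf1 (chr10:87858265-87937042, plus strand), a growth factor of muscle and many other tissues, gave 2326 and 3103 counts with DMSO and 2759 and 2479 with GSI. Its CPM values overlapped, 54.1 and 54.7 against 57.1 and 50.2, and the log2 fold change of -0.02 (SE 0.0771) ran from -0.12 to 0.07 with 1 library left out, so its direction was not settled either.

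**Figure D2:**
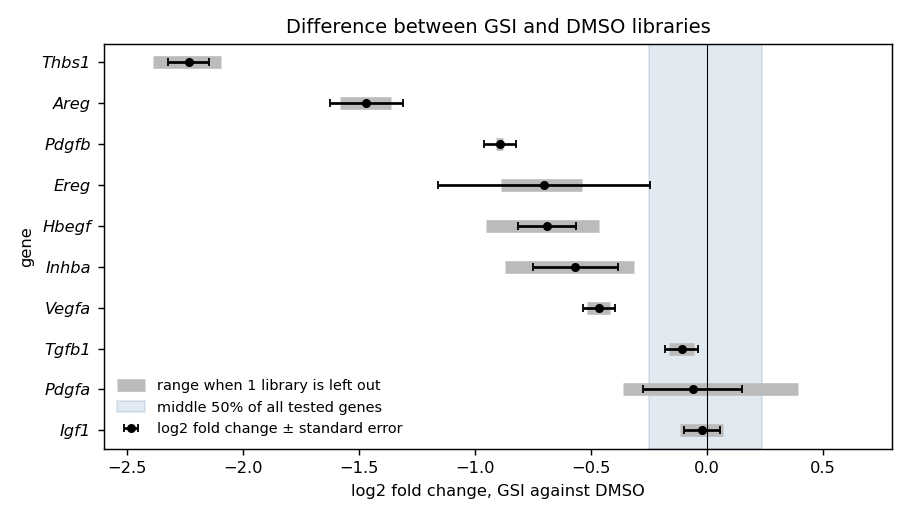
Log2 fold change of GSI against DMSO for each of the 10 genes (points, with bars of 1 SE), the range when 1 of the 4 libraries is left out (grey bars) and the middle 50% of all tested genes (shaded, -0.25 to 0.24). Thbs1 at -2.23 and Areg at -1.47 stand farthest left, Tgfb1, Pdgfa and Igf1 lie in the shaded band, and the grey bars of Pdgfa and Igf1 span 0.

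Summed over the 10 genes, the DMSO libraries held 579 and 554 TPM and the GSI libraries 366 and 357 TPM. Thbs1 took 11.1% and 10.5% of that sum with DMSO, then 3.03% and 3.83% with GSI. Tgfb1 took 20.0% and 21.8%, then 29.5% and 28.3%. In each ligand family 1 or 2 genes carried most of the level in both groups.

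**Figure D3:**
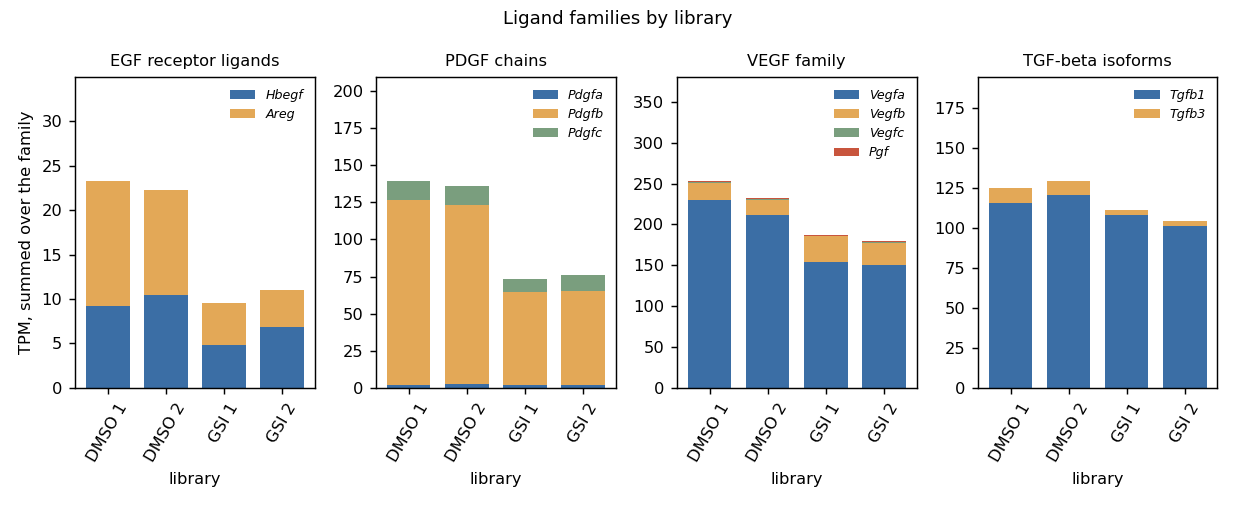
Stacked TPM of 4 ligand families in each of the 4 libraries, showing the genes that reach 0.5 TPM in some library, each panel with its own linear axis from 0. The EGF receptor ligands go from 23.7 and 22.6 TPM with DMSO to 9.75 and 11.3 TPM with GSI for the whole family, the PDGF chains are shorter through Pdgfb, and Vegfb is taller with GSI beside a shorter Vegfa.

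The genes around the factors were tested in the same fit, with FDR from edgeR's quasi-likelihood test and Benjamini-Hochberg adjustment over all 13211 genes. The lists share genes, such as Itgav, Nrp1 and Acvr2a. In the counts for each list, fell and rose mean called lower and called higher at FDR under 0.05. The share of tested genes called in either direction ran from 40.0% in the activin list to 83.3% in the Notch target list, beside 40.8% of all genes. The shares of the activin list, the hypoxia list (45.8%), the TGF-β isoform and ERK feedback lists (50% each) and the thrombospondin and EGF lists (53.8% each) lay nearest to that of all genes, and none of these shares was tested. A few list genes outside the naming rule are given beside those it names, and were chosen after their values were seen. Of the thrombospondins, Thbs1 held 98.6% and 98.7% of the summed TPM with DMSO, and Thbs2 had at most 1 count. Of 13 tested relatives and receptors of thrombospondin, 7 were called lower and 0 higher with GSI (median log2 fold change -0.31). Cd36, the scavenger receptor that binds thrombospondin-1, stood at 582 and 559 CPM with DMSO and 284 and 323 CPM with GSI, a log2 fold change of -0.91 (SE 0.0769, FDR 1.01e-08). Cd47, its other receptor, differed little, with a log2 fold change of -0.20 (FDR 0.0374) that was not called without DMSO replicate 1 or GSI replicate 1. The strongest changes of this list were in the laminin-binding integrin chain Itga6 (-1.60, SE 0.0863, FDR 2.24e-11), the endocytic receptor Lrp1 (-1.32, SE 0.0729, FDR 3.25e-11) and Itga4 (-0.93, SE 0.0757, FDR 6.51e-09).

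For TGF-β, 10 genes of isoforms, storage and activation were tested, of which 4 fell and 1 rose (median -0.14). Mmp14, a membrane metalloprotease that can release TGF-β, rose from 4.81 and 5.75 CPM to 21.7 and 21.3 CPM, a log2 fold change of 2.02 (SE 0.104, FDR 1.12e-11). Tgfb3 fell from 10.2 and 9.61 CPM to 3.50 and 4.07 CPM (-1.39, SE 0.120, FDR 1.52e-08). Itgb5, which pairs with the αv integrin chain, fell by 1.13 on the log2 scale. Of 19 tested receptors and SMADs, 10 fell and 2 rose (median -0.39). Both TGF-β receptors fell, Tgfbr1 from 224 and 218 to 138 and 143 CPM (-0.65, FDR 2.40e-07) and Tgfbr2 from 132 and 131 to 85.4 and 94.6 CPM (-0.55, FDR 4.44e-06). Of the inhibitory SMADs, Smad7 fell by 0.82 on the log2 scale and Smad6 rose by 0.45 (FDR 0.00116). Of the signal-carrying SMADs, Smad3 fell by 0.73, while Smad2 and Smad4 gave -0.04 (FDR 0.714) and -0.09 (FDR 0.354).

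Of 15 tested TGF-β target genes, 8 fell and 2 rose (median -0.52), while Tgfb1 itself was at nearly the same level. Id1, an inhibitor of basic helix-loop-helix factors, fell from 10.4 and 9.98 CPM to 2.54 and 1.76 CPM (-2.24, SE 0.145, FDR 2.58e-10). Cx3cr1, the fractalkine receptor, and Pmepa1, a feedback inhibitor of TGF-β signaling, followed at -1.88 (FDR 3.95e-07) and -1.18 (FDR 4.48e-06). The 2 that rose were Id3, from 281 and 276 to 348 and 351 CPM (0.33, FDR 0.000757), and Cdkn2b (0.80, FDR 0.0121). Cdkn2b was scarce, at 0.906 and 0.687 CPM against 1.30 and 1.44 CPM. Id2 differed little, at 707 and 693 against 691 and 698 CPM (-0.01, FDR 0.920). For activin, Acvr2a fell by 0.72 on the log2 scale (FDR 1.08e-06), Acvr1b gave a log2 fold change of -0.12 (FDR 0.335), and Acvr2b stood at 0.202 to 0.269 CPM. Of the 5 tested relatives and antagonists of activin, 1 fell and 1 rose (median -0.12). The gene that rose was Gdf15, a distant relative of TGF-β released by stressed cells, from 7.72 and 7.95 CPM to 46.9 and 43.8 CPM (2.53, SE 0.0878, FDR 3.15e-14).

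The receptors for the EGF ligands and for PDGF were scarce in these cells. Egfr had 3 to 12 counts a library, Erbb4 was at 0, Erbb2 and Pdgfra had at most 2 counts and Pdgfrb at most 4. Erbb3 was at 2.74 and 2.61 CPM with DMSO and 2.57 and 2.31 CPM with GSI, a log2 fold change of -0.13 (FDR 0.547). Of 13 tested EGF relatives, receptors and shedding genes, 7 were called lower and 0 higher (median -0.33). They included the neuregulin gene Nrg2 (-1.42, FDR 1.01e-06), the EGF receptor feedback inhibitor Errfi1 (-1.24, SE 0.0722, FDR 7.03e-11) and, at under 1.1 CPM, Lrig1 (-1.05, FDR 0.00696), which was not called in DESeq2 or without DMSO replicate 2. Of 6 tested PDGF relatives, 4 fell and 0 rose (median -0.41), with Plat, the tissue plasminogen activator that processes PDGF-C, at 8.02 and 5.82 CPM against 1.63 and 1.17 CPM (-2.29, SE 0.184, FDR 5.27e-09). Pdgfrl gave -0.44 (FDR 0.00331), a call that was lost without DMSO replicate 2.

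Of the VEGF relatives, more rose than fell. Of 11 tested, 6 rose and 2 fell (median 0.60). Kdr, which encodes the VEGF-A receptor VEGFR2, rose from 10.5 and 10.3 CPM to 33.4 and 30.8 CPM (1.63, SE 0.0878, FDR 2.28e-11). Flt1, the gene of VEGFR1, fell from 35.1 and 36.3 to 22.4 and 21.6 CPM (-0.70, SE 0.0784, FDR 4.95e-07), so Kdr lay below Flt1 in counts with DMSO and above it with GSI. The co-receptor Nrp1 fell from 424 and 383 to 250 and 260 CPM (-0.66, FDR 4.51e-07), and the other co-receptor, Nrp2, rose from 446 and 443 to 700 and 648 CPM (0.60, FDR 1.49e-06). Flt4, the gene of VEGFR3, rose by 0.99 (FDR 7.09e-08), and Angpt2 rose by 0.72 (FDR 0.0188) at under 1.6 CPM, a call lost in DESeq2 and in 3 of the 4 fits with 1 library left out. Kdr is also the main gene of the list of 7 endothelial markers, which summed to 12.4 and 12.3 CPM with DMSO and 34.6 and 31.9 CPM with GSI. In that list Tek and Cldn5 were at 0, Cdh5 had 12 to 20 counts, and Pecam1 fell from 1.39 and 1.71 CPM to 0.869 and 0.688 CPM (-1.01, SE 0.239, FDR 0.00211).

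**Figure D4:**
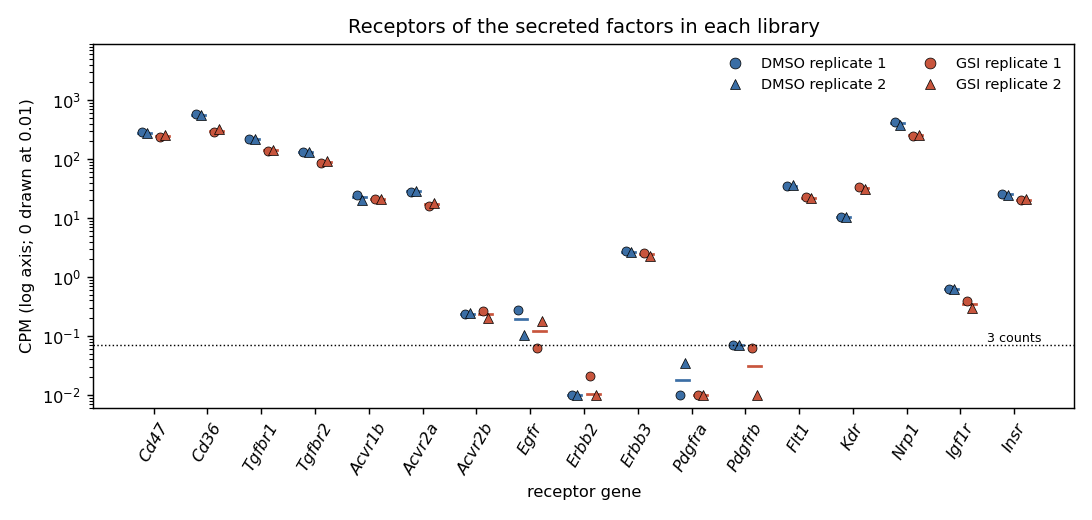
CPM on a log axis for 17 receptor genes of the factors in the 2 DMSO (blue) and 2 GSI (red) libraries, with lines for group means, values of 0 drawn at 0.01 and a dotted line at 3 counts in the smallest library. Among these 17 genes, the receptors for thrombospondin, TGF-β and VEGF lie above 10 CPM and Kdr is the receptor that is clearly higher with GSI. Erbb2, Pdgfra and Pdgfrb lie at or below about the dotted line.

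For IGF-1, Igf1r was at 0.628 and 0.635 CPM with DMSO and 0.393 and 0.304 CPM with GSI (-0.85, SE 0.336, FDR 0.0480), a call that did not hold in DESeq2 or with any 1 library left out. Insr, the insulin receptor, was at 25.7 and 24.7 against 20.2 and 20.9 CPM (-0.29, FDR 0.00709), a call lost without DMSO replicate 1. Of 7 tested IGF relatives, 4 fell and 0 rose (median -0.29), led by the binding protein gene Igfbp4 (-1.37, SE 0.0995, FDR 1.39e-09) and the adaptor Irs2 (-1.14, SE 0.143, FDR 2.23e-06).

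The remaining lists covered programs that are known to act before or after these factors. Of 24 hypoxia response genes, a program to which Vegfa is known to belong, 8 fell and 3 rose (median -0.08), a share called close to that of all genes, with Mxi1 at -1.24 (FDR 2.58e-10) and Ndrg1 at -1.19 (FDR 4.98e-10). Adm gave -1.34 (FDR 0.00102) from 79 and 83 counts with DMSO and 44 and 19 with GSI. The Adm log2 fold change moved to -2.08 without GSI replicate 1 and to -0.84 without GSI replicate 2, still among the called genes. Of 12 ERK feedback genes, 5 fell and 1 rose (median -0.28), among them Spred2 (-1.05, FDR 1.21e-09), Etv5 (-0.96, FDR 4.72e-08) and Dusp5 (-0.91, FDR 9.89e-09). Of 17 other repair factors of macrophages, 7 fell and 3 rose (median -0.19): the mannose receptor Mrc1 (-1.29, FDR 3.54e-09) and the cytokine Osm (-1.08, FDR 3.89e-08) fell. The 3 that rose were more abundant, namely the lysosomal protease gene Ctsb (9369 and 9891 to 10996 and 12103 CPM, 0.26, FDR 0.0114), the membrane glycoprotein gene Gpnmb (3643 and 3858 to 5672 and 5852 CPM, 0.62, FDR 1.48e-06) and the galectin gene Lgals3 (1907 and 2092 to 3248 and 3272 CPM, 0.71, FDR 3.19e-07). Of 6 tested Notch target genes, 4 fell and 1 rose (median -0.59), with Myc at -1.37 (FDR 1.09e-10), Cd44 at -0.68 (FDR 4.32e-07) and Notch1 at -0.64 (FDR 1.25e-06), genes that many pathways are known to control. Hes6 rose (0.32, FDR 0.0263). The other 8 of the 14 listed genes, among them Hes1, Hey1 and Nrarp, had 0 to 5 counts and were not tested.

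**Figure D5:**
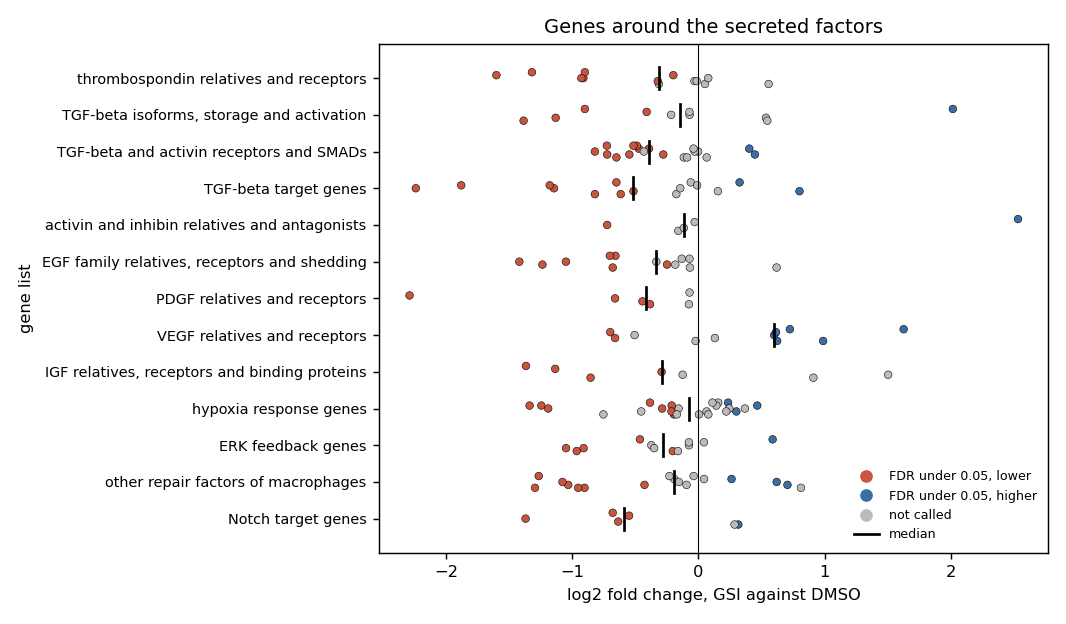
Log2 fold change of GSI against DMSO for the tested genes of 13 lists around the factors, 1 point a gene, red where FDR was under 0.05 and lower, blue where it was higher, grey otherwise, with a black line at the median. The medians run from -0.59 for Notch target genes to 0.60 for VEGF relatives, the only list with a median above 0.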

How the data were processed

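RNA was sequenced from LPS/IC-activated BMMs with DMSO or GSI (16 count columns: 2 groups, 2 replicates, 4 runs each). The authors prepared stranded mRNA libraries, trimmed the reads, aligned them to the mouse genome with STAR 2.5.0a and counted them per gene with HTSeq. The build is mm10 in the study's methods, while the submitters' processing notes list both mm9 and mm10, and the counting mode and strand setting are not given in the sources used here. The deposited values are raw counts. They carry Ensembl IDs, of which 46574 of 47069 matched GENCODE M21 (GRCm38), the source of coordinates and exon lengths.

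Here the runs of a replicate were summed, since the labels number them within a replicate. edgeR 4.0.16 in R 4.3.3 was used, with filterByExpr, TMM, the quasi-likelihood test without a block and Benjamini-Hochberg adjustment over 13211 genes. CPM uses TMM-scaled library sizes, and TPM uses union exon lengths. SD is over 2 libraries. The fit was tested on simulated data. Alternatives were DESeq2 1.42.0, other normalization and filters, a replicate block, single runs and leaving out each library.

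The 10 genes and the lists of related genes and markers were chosen with earlier results of these data known. The genes named are the 10 factors, the receptors of their products, the 3 genes of each list with the largest called change (1 such gene is not reported here), and the 5 genes closest to Thbs1. Of 8 marker lists, those for lymphocytes (0.511 to 1.18 CPM) and mast cells (1.05 to 1.49 CPM) were low in every library.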

Additional observations from a re-analysis of the deposited data

How the results depend on the processing

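The number of factors among the called genes was 6 in the reported fit and 5 to 7 in the other fits: DESeq2 left out Inhba, and the 16 runs taken as separate samples added Tgfb1. Runs of the same replicate are not independent replicates, so the calls added in the fit of 16 runs carry no further evidence. The number of genes called was 5392, and it was 4222 in DESeq2, 7582 with the 16 runs as samples and 4162 to 4978 when 1 library was left out. With replicate number as a block (replicate block), 6444 genes were called and the same 6 factors were among them; libraries of the same number had a correlation of deviations of 0.15 over 13211 genes, and with 2 pairs they share only a number. With at least 10 counts required in every library, Ereg was not tested. Other normalization moved the median of all genes by no more than 0.01 on the log2 scale. Removing a trend with GC content and length took Igf1 to 0.13 and Pdgfb to -0.96, and the cause was not tested. Counts of called genes in small lists moved by more than 1.5 times in some fits: without DMSO replicate 1 the hypoxia list had 5 genes lower in place of 8 and the IGF list 2 in place of 4, without DMSO replicate 2 the ERK feedback list had 3 in place of 5, and with the 16 runs as samples 7 hypoxia genes were higher in place of 3. The other such moves were lists with 0 to 2 genes called higher. Ereg had 8 to 16 counts a library, so its value is limited by depth.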
